A study of Mus musculus with 9 samples.

Results

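The EGF family ligands and their ErbB receptors were followed through 10 genes of a table of 18220 rows, taken by name: the ligands Egf, Tgfa, Areg, Ereg, Hbegf and Nrg1, the receptors Egfr, Erbb2 and Erbb3, and the receptor inhibitor Errfi1. All 10 had a row, matched through the mouse gene number. RNA sequencing was done on the intestinal stem cell niche, the bottom of the ileal crypt where stem cells sit among Paneth cells, cut out by laser microdissection. The 9 libraries came from 3 groups of 3 biological replicates, all labelled wild type. They were AKR mice aged 25 weeks without inflammation (AKR 25 wk), SAMP/YitFc mice aged 5 weeks without inflammation (SAMP 5 wk) and SAMP/YitFc mice aged 25 weeks with marked ileitis (SAMP 25 wk). SAMP/YitFc is an inbred strain in which a Crohn's disease-like ileitis arises spontaneously, and AKR serves as its control strain. No pair of groups differs in 1 factor alone: strain and ileitis cannot be told apart between SAMP 25 wk and AKR 25 wk, age and ileitis cannot be told apart between SAMP 25 wk and SAMP 5 wk, and strain and age cannot be told apart between SAMP 5 wk and AKR 25 wk.

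EGF family ligands are made as precursors anchored in the cell membrane, and metalloproteases of the ADAM family cut most of them free. Egf, Tgfa and Areg bind EGFR, Ereg and Hbegf bind EGFR and ErbB4, and Nrg1 binds ErbB3 and ErbB4. Bound receptors pair up and phosphorylate each other, which starts the RAS-MAPK and PI3K cascades. ErbB2 has no known ligand of its own and serves as a partner for the others, and ErbB3 has little kinase activity and signals mainly through its partner. In the small intestine this pathway drives division at the crypt base, Paneth cells are a source of EGF, and EGF is a standard component of the medium in which crypts are grown as organoids. Errfi1 encodes MIG6, an inhibitor that is induced by EGFR signalling and binds the receptor's kinase domain.

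Values were FPKM, fragment counts scaled to transcript length and library size, in which levels of different genes can be set side by side. The estimated depth was 6950000 to 10250000 reads per library. The captured tissue held Paneth cell RNA in every library, with 10 Paneth markers summing to 36329 to 157336 FPKM and 8 stem cell markers to 337 to 1304 FPKM, and none of either list was at 0 in a whole group. A pair of libraries stood apart. AKR 25 wk replicate 2 had 12 enterocyte markers summing to 17665 FPKM, against 181 to 1668 FPKM in the other 8 libraries, with Apoa4 and Lct at 0 in all of SAMP 5 wk. SAMP 25 wk replicate 3 had Xist at 176.75 FPKM and the Y-linked Eif2s3y at 0.14 FPKM, where the other 8 libraries had Xist at 0.21 to 1.32 FPKM and Eif2s3y at 14.53 to 26.97 FPKM. The labels give no sex. Because these are bulk samples, fewer cells of a type and less RNA per cell cannot be told apart in any value that follows.

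No member passed the test in any comparison. The test was limma on log2(FPKM + 1) over the 11775 genes whose mean over 9 libraries reached 1 FPKM, with Benjamini-Hochberg adjusted p at 0.05. Of the 10 members, 7 entered it, and Egf, Areg and Nrg1 were too low. For SAMP 25 wk against AKR 25 wk, 0 of 7 members were called, beside 2.94% of all tested genes. For SAMP 25 wk against SAMP 5 wk, 0 of 7 were called, beside 1.52%, and for SAMP 5 wk against AKR 25 wk, 0 of 7, beside 0.552%. With so small a share of all genes called, a count of 0 among 7 is near the background. At an unadjusted p under 0.05, limma gave 3, 2 and 0 of the 7 members in the same order, beside 15.5%, 16.5% and 7.47% of all tested genes. The 3 were Erbb2, Erbb3 and Hbegf, and the 2 were Erbb2 and Erbb3, all lower in SAMP 25 wk. Hbegf had entered the test through its level in the other groups. The median member difference was -0.47, -0.30 and -0.16 on the log2 scale, beside -0.15, -0.12 and -0.03 over all tested genes.

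By group means, the receptors and Errfi1 were above every ligand in each group. In AKR 25 wk the order was Erbb2, Erbb3, Errfi1, Egfr, Tgfa, Hbegf, Ereg, Nrg1, Areg and Egf. In that order, neighbours had overlapping library values except for Egfr against Tgfa and Ereg against Nrg1. In SAMP 5 wk the order began with Erbb2, Erbb3, Errfi1, Egfr and Tgfa as well, and neighbours were separate between Erbb3 and Errfi1, between Egfr and Tgfa, between Tgfa and Hbegf, and between Ereg and Egf. In SAMP 25 wk the order began with Errfi1, which was above Erbb3 in each library, followed by Erbb3, Erbb2, Egfr and Tgfa with overlapping neighbours except for Errfi1 against Erbb3. All these levels are per length of transcript. The Egfr row covers 2 transcripts, of 2943 and 10208 bases, and the length used for its FPKM is not known. Its level beside other genes, and sums and ratios that include it, depend on that length.

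**Figure D1:**
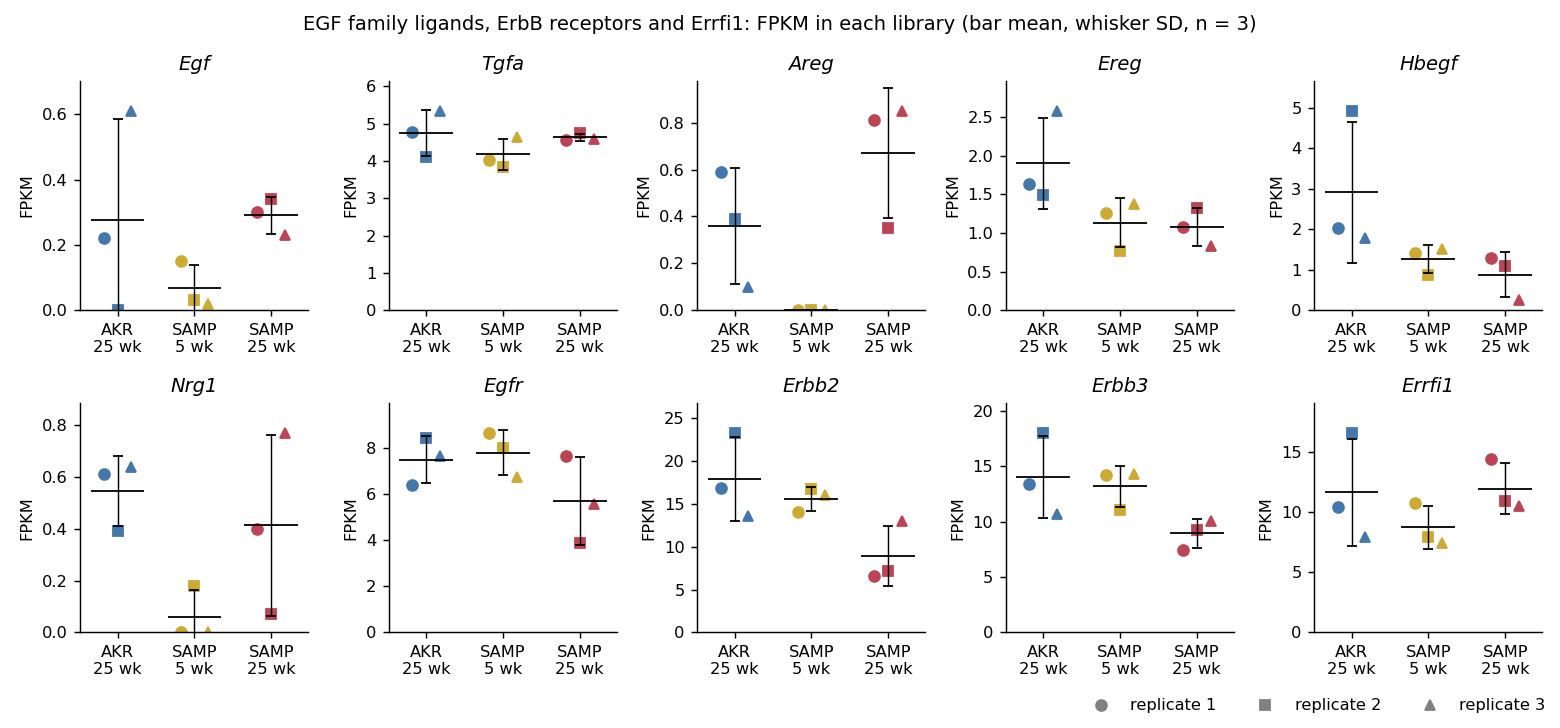
FPKM of the 10 members in 9 libraries, 1 panel per gene with its own axis starting at 0. Circle, square and triangle are replicates 1, 2 and 3, the bar is the group mean and the whisker the SD (n = 3). Erbb2 and Erbb3 lie below both other groups in all 3 SAMP 25 wk libraries, and Areg is listed at 0 in all 3 SAMP 5 wk libraries.

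Tgfa, which encodes TGF-alpha, had the highest mean of the ligands in each group, and its groups overlapped in every comparison. Its FPKM was 4.78, 4.11 and 5.34 in AKR 25 wk, 4.03, 3.85 and 4.64 in SAMP 5 wk, and 4.56, 4.74 and 4.6 in SAMP 25 wk. No library set was separate, with means of 4.74 ± 0.616, 4.17 ± 0.414 and 4.63 ± 0.0945 (SD, n = 3). The difference of SAMP 25 wk from AKR 25 wk was -0.02 ± 0.19 (SE) on the log2 scale with a 95% interval of -0.44 to 0.39, and its sign turned under 3 other scalings. From SAMP 5 wk it differed by 0.13 ± 0.19. Tgfa made up 36.4% to 48.5% of the summed FPKM of the 6 ligands in AKR 25 wk, 58.9% to 67.4% across SAMP 5 wk and 54.0% to 61.0% across SAMP 25 wk. Its share was thus lowest in every AKR 25 wk library, where the level of Tgfa itself overlapped that of the other groups.

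Ereg (epiregulin) and Hbegf (heparin-binding EGF-like growth factor) were higher in the AKR 25 wk libraries than in those of either SAMP group, short of the threshold. Ereg was at 1.63, 1.49 and 2.58 FPKM in AKR 25 wk, at 1.26, 0.77 and 1.37 in SAMP 5 wk, and at 1.08, 1.32 and 0.83 in SAMP 25 wk. All 3 AKR 25 wk libraries were above all 6 SAMP libraries, and the SAMP groups overlapped. Hbegf was at 2.03, 4.92 and 1.79 FPKM in AKR 25 wk, at 1.40, 0.88 and 1.51 in SAMP 5 wk, and at 1.29, 1.09 and 0.26 in SAMP 25 wk. Here too every AKR 25 wk library lay above every SAMP library, with the highest value in AKR 25 wk replicate 2, the library rich in enterocyte markers. Hbegf passed the minimum of 1 FPKM through its level in the other groups, since its mean in SAMP 25 wk was 0.880 ± 0.546 (SD, n = 3).

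In the test, Hbegf in SAMP 25 wk differed from AKR 25 wk by -1.02 ± 0.35 (SE) on the log2 scale, with a 95% interval of -1.78 to -0.26 and an adjusted p of 0.171 by limma. Ereg differed by -0.47 ± 0.27 with an adjusted p of 0.428. Neither passed. Without AKR 25 wk replicate 2 the Hbegf difference was -0.68 with an adjusted p of 0.403. With libraries weighted by their spread it was -1.25 with an adjusted p of 0.00506. Over 20 alternatives the Hbegf difference ranged from -1.70 with a pseudocount of 0.1 to -0.41. In SAMP 5 wk against AKR 25 wk the differences were -0.71 ± 0.35 for Hbegf and -0.44 ± 0.27 for Ereg, and neither passed. Without AKR 25 wk replicate 2 that Hbegf difference was -0.37. Without AKR 25 wk replicate 3 the Ereg differences from AKR 25 wk were -0.31 for SAMP 25 wk and -0.27 for SAMP 5 wk. The comparisons share the AKR 25 wk libraries, so the SAMP groups' differences from it are not independent.

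Areg, Nrg1 and Egf were near the limit of detection, and the SAMP 5 wk group had the lowest mean for each. Areg (amphiregulin) was listed at 0 in all 3 SAMP 5 wk libraries, at 0.59, 0.39 and 0.10 FPKM in AKR 25 wk, and at 0.81, 0.35 and 0.85 in SAMP 25 wk. The SAMP 5 wk group was thus separate from both others, which overlapped. These levels rested on an estimated 11 reads in all in AKR 25 wk and 19 in SAMP 25 wk. A count of 0 in a SAMP 5 wk library allows up to 3 reads, which would be 0.251 to 0.371 FPKM there, for counting error only. That limit is above the lowest AKR 25 wk value of 0.10 in each SAMP 5 wk library, so a difference from that library was not detectable at this depth. Against the lowest SAMP 25 wk value of 0.35, 1 of the 3 limits was higher. Such a pattern of 0 in all of SAMP 5 wk and above 0 in the other 6 libraries was found for 10 rows of the table.

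Nrg1 (neuregulin 1), a ligand of the ErbB3 arm, was at 0.61, 0.39 and 0.64 FPKM in AKR 25 wk, at 0, 0.18 and 0 in SAMP 5 wk, and at 0.40, 0.07 and 0.77 in SAMP 25 wk. The SAMP 5 wk and AKR 25 wk libraries did not overlap, and SAMP 25 wk overlapped both. The estimated reads summed to 34, 4 and 24 over the 3 libraries of AKR 25 wk, SAMP 5 wk and SAMP 25 wk. Egf was at 0.22, 0 and 0.61 FPKM in AKR 25 wk, at 0.15, 0.03 and 0.02 in SAMP 5 wk, and at 0.30, 0.34 and 0.23 in SAMP 25 wk. Every SAMP 25 wk library was above every SAMP 5 wk library for Egf, and AKR 25 wk overlapped both. With no minimum FPKM, limma gave an adjusted p of 0.102 for Areg between SAMP 25 wk and SAMP 5 wk and 0.495 for Nrg1 between SAMP 5 wk and AKR 25 wk, and Egf had adjusted p of at least 0.488 in the 3 comparisons. None of them passed.

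Markers of cell types known to make these ligands were measured in the same libraries. The 10 Paneth markers summed to 36329 to 83275 FPKM across AKR 25 wk, to 56976 to 73175 across SAMP 5 wk and to 97394 to 157336 across SAMP 25 wk. Lyz1, which encodes a lysozyme of Paneth cells, ran against that sum, at 5435 to 9141 FPKM across SAMP 25 wk and 15074 to 36165 FPKM in the 6 other libraries. Fibroblast markers, a cell type in which Nrg1 is known to be expressed, summed to 90.4 to 232 FPKM across AKR 25 wk, 172 to 350 across SAMP 5 wk and 136 to 199 across SAMP 25 wk over 10 genes, with Foxl1 at 0 in all of SAMP 5 wk. The macrophage and dendritic cell markers summed to 99.97 to 303 FPKM, 173 to 310 and 51.0 to 85.9 over 10 genes in the same order. Lyz2 was the largest part of each sum. Against AKR 25 wk, limma called 3 of the 10 genes lower in SAMP 25 wk and 0 higher. Not every gene followed the sum: Adgre1 had means of 1.34, 1.27 and 1.35 FPKM and Cx3cr1 of 1.04, 1.59 and 1.60 in the same order. The part of these cell types in the ligand values was not tested.

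The remaining ligands of the family were low in every group. Btc (betacellulin) had means of 0.970, 0.903 and 0.717 FPKM in AKR 25 wk, SAMP 5 wk and SAMP 25 wk, and Nrg4 had 0.887, 0.783 and 1.05. Epgn (epigen) had 0.143, 0.290 and 0.0233. Nrg2 had 0.0267, 0.0733 and 0, and Nrg3 had 0, 0.0233 and 0. None of these 5 genes reached the mean of 1 FPKM needed for the test, and with no minimum none had an adjusted p under 0.655. Erbb4 was not analysed here.

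Areg and Ereg are neighbours in the genome. With Epgn and Btc they form a cluster of 4 ligand genes on mouse chromosome 5, spanning 375.5 kb in GRCm38, with Epgn at chr5:91027517-91035212, Ereg at chr5:91074617-91093649, Areg at chr5:91139599-91148432 and Btc at chr5:91357261-91402994. In SAMP 5 wk, Areg was listed at 0 and Ereg was at 0.77 to 1.37 FPKM.

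Upstream sequence is shown for the ligand listed at 0 in 1 group (Areg), the inhibitor that is known as an early response gene (Errfi1) and the receptor with the largest difference (Erbb2). Each is the 250 bases before a transcript start, from RefSeq on GRCm38.p6, plus strand, at chr5:91139349-91139598 for Areg, chr4:150854820-150855069 for 1 of 2 Errfi1 starts and chr11:98412234-98412483 for Erbb2. Capitals mark matches on either strand to a GC box (GGGCGG), an AP-1 site (TGANTCA), a cAMP response element or CRE (TGACGTCA), a TATA box (TATAAA) or an E-box (CACGTG).
Areg: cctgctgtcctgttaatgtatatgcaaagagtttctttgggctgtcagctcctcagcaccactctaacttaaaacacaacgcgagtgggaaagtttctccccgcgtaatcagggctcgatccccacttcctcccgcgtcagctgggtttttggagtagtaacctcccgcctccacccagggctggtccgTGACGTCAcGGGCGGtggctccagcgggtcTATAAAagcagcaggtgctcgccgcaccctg
Errfi1: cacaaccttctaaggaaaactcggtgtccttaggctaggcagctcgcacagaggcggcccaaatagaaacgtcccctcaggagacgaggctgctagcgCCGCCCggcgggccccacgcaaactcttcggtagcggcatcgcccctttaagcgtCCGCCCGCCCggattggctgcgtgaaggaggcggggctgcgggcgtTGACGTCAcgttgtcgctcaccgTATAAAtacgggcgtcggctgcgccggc
Erbb2: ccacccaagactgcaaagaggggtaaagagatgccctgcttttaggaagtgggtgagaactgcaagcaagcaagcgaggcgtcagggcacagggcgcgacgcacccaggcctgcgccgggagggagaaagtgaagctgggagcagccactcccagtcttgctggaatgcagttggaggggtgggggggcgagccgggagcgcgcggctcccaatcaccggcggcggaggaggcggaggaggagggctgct
The Areg window held a CRE at -61 to -54, a GC box at -52 to -47 and a TATA box at -31 to -26, counted from the start. The Errfi1 window held a CRE at -51 to -44, a TATA box at -28 to -23 and 3 GC boxes on the minus strand, of which those at -97 to -92 and -93 to -88 overlap. The other Errfi1 window, chr4:150853546-150853795, matched none of the 5 and had a GC content of 38%. The Erbb2 window matched none of the 5. A CRE was present in 1.55% of 32851 such windows, a TATA box in 12.37%, a GC box in 32.74%, and a CRE together with a TATA box in 0.119%, while 48.7% matched none. GC content was 57.2% for Areg, 64.8% for the Errfi1 window shown and 66% for Erbb2, beside a median of 52.4% over all windows. Windows were examined for 6 members, those 3 with Egf, Tgfa and Egfr. Among the 3 others the Tgfa window held 2 GC boxes and the Egfr window 1.

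Among the receptors, Erbb2 showed the largest difference. Its FPKM was 16.84, 23.28 and 13.59 in AKR 25 wk, 14.02, 16.74 and 16.05 in SAMP 5 wk, and 6.62, 7.18 and 12.98 in SAMP 25 wk. All 3 SAMP 25 wk libraries were below all 6 others, although SAMP 25 wk replicate 3 lay close to the lowest AKR 25 wk library. The means were 17.9 ± 4.93, 15.6 ± 1.41 and 8.93 ± 3.52 (SD, n = 3), so SAMP 25 wk had 0.499 times the mean level of AKR 25 wk and 0.572 times that of SAMP 5 wk. On the log2 scale Erbb2 differed by -0.95 ± 0.27 (SE) from AKR 25 wk, with a 95% interval of -1.54 to -0.37 and an adjusted p of 0.0929 by limma. From SAMP 5 wk it differed by -0.79 ± 0.27, with an interval of -1.38 to -0.21 and an adjusted p of 0.182. Neither difference passed. Between SAMP 5 wk and AKR 25 wk the difference was -0.16 ± 0.27 with an interval of -0.74 to 0.43.

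Erbb3, a frequent partner of Erbb2, was also lowest in SAMP 25 wk. Its FPKM was 13.40, 18.01 and 10.69 in AKR 25 wk, 14.25, 11.07 and 14.33 in SAMP 5 wk, and 7.46, 9.29 and 10.05 in SAMP 25 wk. Again no SAMP 25 wk library reached the lowest of the 6 others. Means were 14.0 ± 3.70, 13.2 ± 1.86 and 8.93 ± 1.33 (SD, n = 3), which put SAMP 25 wk at 0.637 times AKR 25 wk and 0.676 times SAMP 5 wk. The log2 differences were -0.58 ± 0.23 (SE; 95% interval -1.07 to -0.08, adjusted p = 0.243) and -0.52 ± 0.23 (interval -1.01 to -0.02, adjusted p = 0.288) by limma. Both missed the threshold. The ratio of Erbb2 to Erbb3 was 1.257 to 1.293 across AKR 25 wk, 0.984 to 1.512 across SAMP 5 wk and 0.773 to 1.292 across SAMP 25 wk, with overlapping ranges.

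Egfr, the receptor for most of the ligands above, differed less. Its FPKM was 6.42, 8.43 and 7.66 in AKR 25 wk, 8.66, 8.03 and 6.75 in SAMP 5 wk, and 7.66, 3.86 and 5.58 in SAMP 25 wk. The groups overlapped through SAMP 25 wk replicate 1, which was as high as an AKR 25 wk library. The log2 difference of SAMP 25 wk was -0.38 ± 0.24 (SE) from AKR 25 wk with an adjusted p of 0.474, and -0.43 ± 0.24 from SAMP 5 wk with an adjusted p of 0.396 by limma. Without SAMP 25 wk replicate 2 these were -0.17 and -0.22, and without SAMP 25 wk replicate 1 they were -0.58 and -0.63. The summed FPKM of Egfr, Erbb2 and Erbb3 was 31.94 to 49.72 across AKR 25 wk, 35.84 to 37.13 across SAMP 5 wk and 20.33 to 28.61 across SAMP 25 wk. The ligand sum was 9.86 to 11.3, 5.71 to 7.54 and 7.54 to 8.44 in the same groups. The summed levels therefore had different low groups, the receptors in SAMP 25 wk and the ligands in the SAMP strain at both ages.

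**Figure D2:**
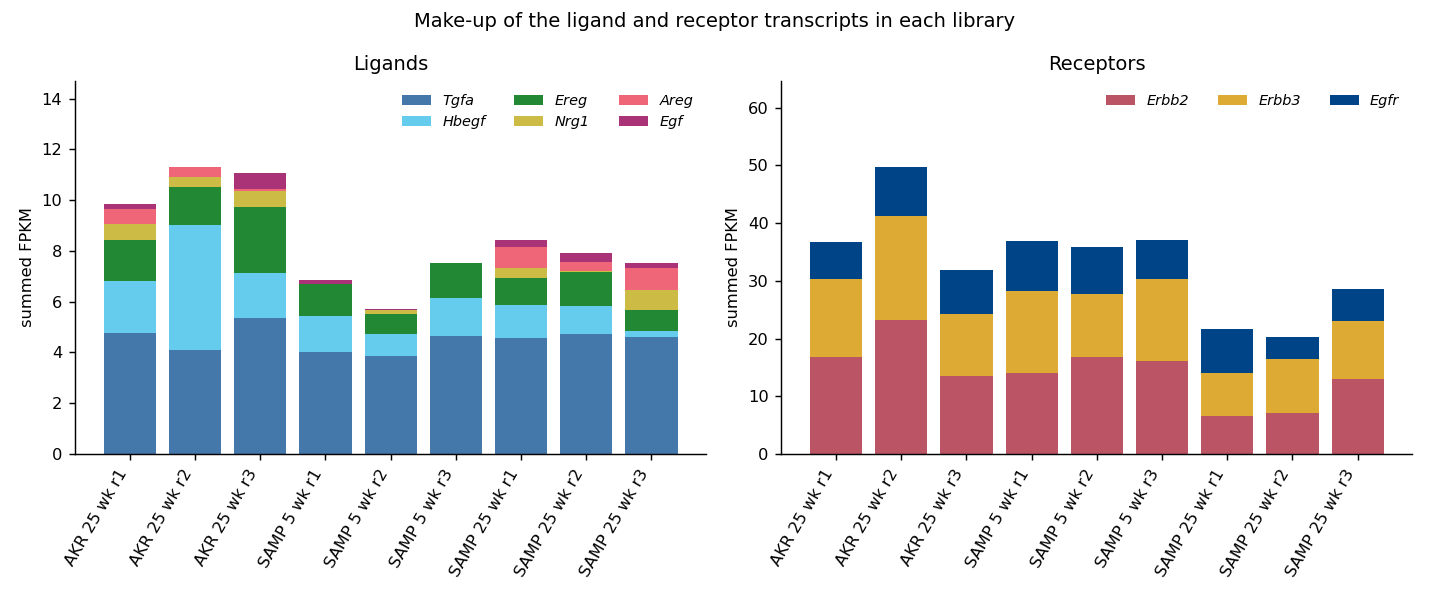
Stacked FPKM of the 6 ligands and of the 3 receptors in each of 9 libraries, with axes starting at 0. The receptor stacks of SAMP 25 wk end at 20.33 to 28.61 FPKM, below the 31.94 to 49.72 FPKM of AKR 25 wk and the 35.84 to 37.13 FPKM of SAMP 5 wk, and Tgfa is the thickest ligand segment in every library except AKR 25 wk replicate 2, where Hbegf is.

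For SAMP 25 wk against AKR 25 wk, 4 of the 7 tested members had all SAMP 25 wk libraries below all AKR 25 wk libraries (Erbb2, Erbb3, Ereg and Hbegf) and 0 had them above, beside 12.6% and 6.6% of all tested genes. Hbegf is among the 7 through its level in the groups where it was higher, so the filter favoured its being counted here as lower. Against SAMP 5 wk, 2 of 7 were separate and lower (Erbb2 and Erbb3) and 0 higher, beside 12.3% and 7.95%. For SAMP 5 wk against AKR 25 wk the counts were 2 of 7 (Ereg and Hbegf) and 0, beside 8.33% and 6.11%. Differences below 0 were found for 6 of 7, 5 of 7 and 6 of 7 members, beside 67.1%, 61.9% and 54.0% of all tested genes. Since most genes lay below 0 against AKR 25 wk, differences can also be read from the median of all tested genes, which was -0.15. From that median Erbb2 was at -0.80, Erbb3 at -0.43 and Egfr at -0.23.

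**Figure D3:**
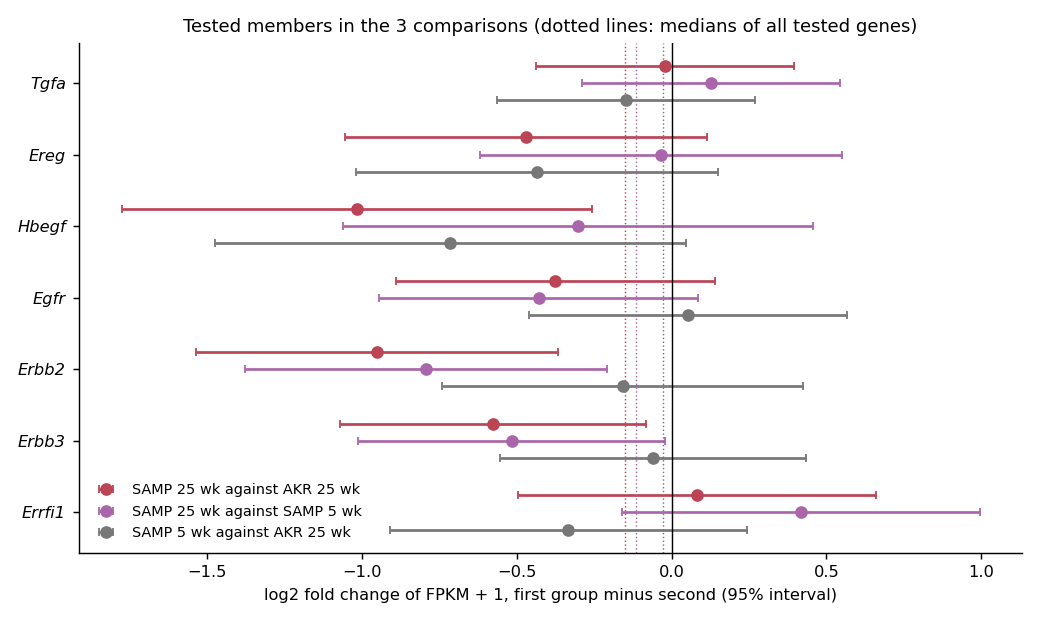
Difference in log2(FPKM + 1) of the 7 tested members in 3 comparisons, with the 95% interval from limma. The dotted line is the median of all 11775 tested genes. The intervals of Erbb2 and Erbb3 lie below 0 in both comparisons of SAMP 25 wk, and no adjusted p passed 0.05.

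The libraries that stood apart moved with these values. AKR 25 wk replicate 2 had the highest Erbb2, Erbb3, Hbegf and Errfi1 of all 9 libraries. Without it, SAMP 25 wk differed from AKR 25 wk by -0.76 for Erbb2 and -0.39 for Erbb3 on the log2 scale, with adjusted p of 0.261 and 0.516 by limma. SAMP 25 wk replicate 3, the library with Xist, had the highest Erbb2 and Erbb3 of its group. Without it, Erbb2 differed by -1.23 with an adjusted p of 0.0418, and so passed, and Erbb3 by -0.66 with an adjusted p of 0.317. Without both libraries the differences from AKR 25 wk were -1.03 and -0.48, with adjusted p of 0.0999 and 0.551. Over 21 alternatives the difference from AKR 25 wk ranged from -1.23 to -0.42 for Erbb2 and -0.75 to -0.37 for Erbb3. The value of -0.42 was that of Erbb2 with library weights. For both genes all SAMP 25 wk libraries lay below all AKR 25 wk libraries. Only another scaling could therefore have turned the sign, and under the other alternatives it was fixed in advance.

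**Figure D4:**
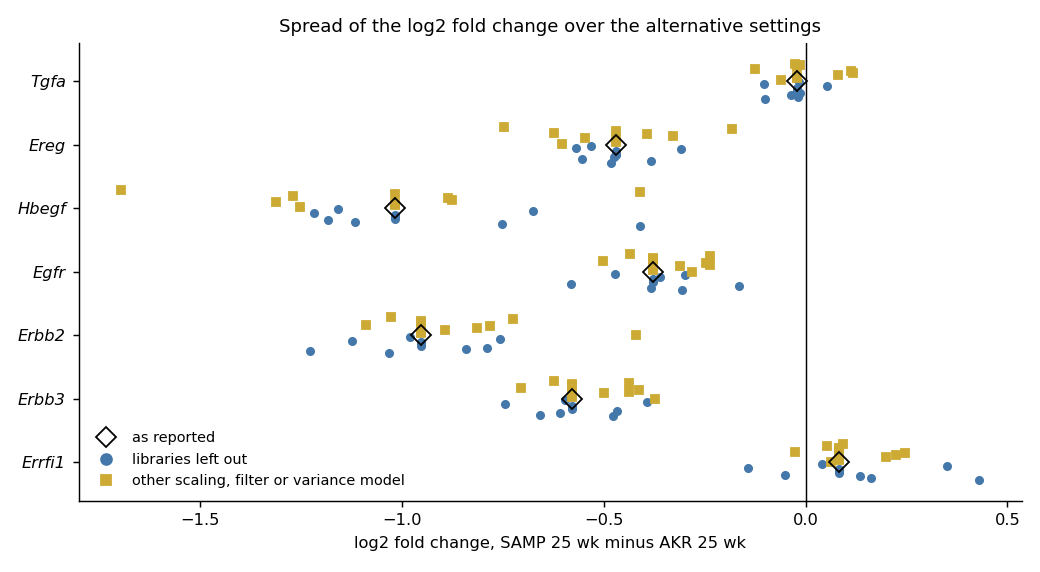
Log2 difference of SAMP 25 wk from AKR 25 wk for the tested members. The diamond is the value as reported, blue circles leave out libraries, and yellow squares use another scaling, filter, pseudocount or variance setting. All points of Erbb2, Erbb3, Egfr, Ereg and Hbegf lie below 0, and those of Tgfa and Errfi1 lie on both sides.

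Cell type markers also differed between the groups beside the receptors. Goblet cell markers (8 genes) summed to 6434 to 9115 FPKM across AKR 25 wk, 4716 to 9509 across SAMP 5 wk and 14384 to 18685 across SAMP 25 wk, and tuft cell markers (7 genes) to 6.35 to 16.1, 13.6 to 20.5 and 49.7 to 61.1. Smooth muscle markers (8 genes) summed to 38.7 to 97.0, 32.1 to 89.2 and 109 to 127 FPKM. Stem cell markers summed to 337 to 752, 1058 to 1304 and 711 to 882 FPKM, so SAMP 25 wk was below SAMP 5 wk and overlapped AKR 25 wk. Most of each stem cell sum came from Olfm4, at 195 to 513, 832 to 1039 and 543 to 683 FPKM. Against AKR 25 wk, 6 of the 8 stem cell genes lay below 0, beside 67.1% of all tested genes. Their median was -0.28, beside -0.15 over all tested genes. None of the genes in these lists was at 0 in a whole group. The goblet list was mixed: against AKR 25 wk limma called 4 of its 8 genes higher and 3 lower. Across SAMP 25 wk its sum came mostly from Spink4, at 8933 to 14335 FPKM, beside 1699 to 3936 FPKM in the other groups. Tff3 was at 620 to 1194 FPKM in the other groups and 111 to 382 across SAMP 25 wk. In the same order, Fcgbp was at 73.1 to 261 and 5.59 to 23.2, and Zg16 at 307 to 2497 and 9.96 to 34.5. The mast cell and group 2 lymphoid markers (10 genes) summed to 16.1 to 20.0, 14.2 to 22.7 and 51.2 to 77.2 FPKM, with most of each sum from Kit, and Il13 with Mcpt4 at 0 in all of AKR 25 wk, Il13 with Mcpt2 at 0 in all of SAMP 5 wk, and Mcpt4 at 0 in all of SAMP 25 wk. The sums of these lists, except the stem cell list, and of the Paneth list given above were separate and higher in SAMP 25 wk than in both other groups. Not every gene of these lists followed its sum. The Paneth marker Mmp7 had a mean of 193 FPKM in SAMP 25 wk and 244 FPKM in SAMP 5 wk. Cpa3 and Mcpt1, of the mast cell list, had their lowest means in SAMP 25 wk. The part of these cell types in the receptor values was not tested.

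Errfi1, the inhibitor of EGFR, had similar means in the 25-week groups. Its FPKM was 10.41, 16.54 and 7.87 in AKR 25 wk, 10.77, 7.95 and 7.42 in SAMP 5 wk, and 14.41, 10.92 and 10.48 in SAMP 25 wk. The groups overlapped, with means of 11.6 ± 4.46, 8.71 ± 1.80 and 11.9 ± 2.15 (SD, n = 3). The log2 difference of SAMP 25 wk was 0.08 ± 0.26 (SE) from AKR 25 wk, with a 95% interval of -0.50 to 0.66, and 0.42 ± 0.26 from SAMP 5 wk, with an interval of -0.16 to 0.99. The first difference changed sign with TPM, and its interval does not exclude a difference as large as that of Egfr in either direction. Relative to its targets, Errfi1 was at 0.807 to 2.177 times Erbb2 in SAMP 25 wk, against 0.579 to 0.710 times across AKR 25 wk and 0.462 to 0.768 times across SAMP 5 wk. Its ratio to Egfr was 1.878 to 2.829 across SAMP 25 wk, 1.027 to 1.962 across AKR 25 wk and 0.990 to 1.244 across SAMP 5 wk. The ratio to Erbb2 was thus higher in each SAMP 25 wk library than in the 6 others, while the ratio to Egfr overlapped AKR 25 wk.

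The rest of the pathway was read from 4 lists, and none of their genes passed in any comparison. For shedding and trafficking of ligands, 6 genes were tested, and the medians were 0.13, -0.01 and 0.03 for SAMP 25 wk against AKR 25 wk, SAMP 25 wk against SAMP 5 wk and SAMP 5 wk against AKR 25 wk. At an unadjusted p under 0.05, limma gave 1, 0 and 2 of them, where all tested genes had 15.5%, 16.5% and 7.47% and medians of -0.15, -0.12 and -0.03. Adam17, the main sheddase of TGF-alpha and amphiregulin, had means of 6.26 ± 2.25, 7.05 ± 1.06 and 6.20 ± 1.19 FPKM (SD, n = 3) in AKR 25 wk, SAMP 5 wk and SAMP 25 wk, and its adjusted p was at least 0.801. The 18 tested genes of receptor restraint and degradation had medians of -0.14, -0.05 and -0.14. Of them 2, 2 and 1 were at an unadjusted p under 0.05 by limma, or 11.1%, 11.1% and 5.56%. For so few genes these counts are near the shares of all genes. Lrig1, which restrains ErbB receptors and marks crypt stem cells, was at 15.3 ± 3.69, 19.0 ± 1.41 and 16.2 ± 2.57 FPKM in the same order of groups, with adjusted p of at least 0.655. The 26 tested genes of RAS-MAPK and PI3K transduction had medians of -0.03, 0.08 and -0.09, with 1, 0 and 1 at an unadjusted p under 0.05, or 3.85%, 0% and 3.85%, below those shares.

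The early target list holds transcripts that EGFR signalling is known to induce, and 17 of its 23 genes were tested. Their medians were -0.30, -0.10 and -0.21, with 5, 3 and 1 genes at an unadjusted p under 0.05, beside 15.5%, 16.5% and 7.47% of all tested genes, whose medians were -0.15, -0.12 and -0.03. These are 29.4%, 17.65% and 5.88% of the 17, so the last 2 counts are near the background. Among the 5 and among the 3, Dusp4 and Phlda1 were higher in SAMP 25 wk and the rest lower. Dusp4 had entered the test through its level in SAMP 25 wk. Phlda1 was at 23.5 ± 12.1, 20.7 ± 4.31 and 45.6 ± 20.6 FPKM (SD, n = 3) in AKR 25 wk, SAMP 5 wk and SAMP 25 wk. Dusp6, a phosphatase that acts on ERK, was at 7.33 ± 0.640, 5.00 ± 2.51 and 5.46 ± 0.562 FPKM (SD, n = 3) in AKR 25 wk, SAMP 5 wk and SAMP 25 wk. Egr1, an immediate early transcription factor, was at 7.49 ± 3.40, 4.55 ± 1.23 and 4.29 ± 2.05 FPKM. Fos, a subunit of AP-1, was at 3.06 ± 2.28, 1.03 ± 0.646 and 2.18 ± 0.942 FPKM. These 3 genes had their highest mean in AKR 25 wk, with adjusted p of at least 0.405 in the 3 comparisons by limma.

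Some further genes of the lists are given because their adjusted p was low or their library values were separate, a choice made after their values were seen. Ccnd1, which encodes cyclin D1, was at 66.2 ± 7.21 FPKM in AKR 25 wk, 83.0 ± 3.45 in SAMP 5 wk and 40.7 ± 12.6 in SAMP 25 wk (SD, n = 3). SAMP 25 wk differed from SAMP 5 wk by -1.06 ± 0.24 (SE) on the log2 scale with an adjusted p of 0.0552 by limma, just outside the threshold. Dusp4, another phosphatase of the MAPK cascade, was higher in SAMP 25 wk, at 0.747 ± 0.496, 1.06 ± 0.533 and 2.61 ± 0.487 FPKM (SD, n = 3) in the same order of groups, and its difference of 1.08 ± 0.31 from AKR 25 wk had an adjusted p of 0.101. Dusp4 passed the minimum of 1 FPKM through its level in SAMP 25 wk, so its count as higher there was favoured by the filter. Etv4, a transcription factor downstream of MAPK signalling, was too low for the test at 0.05 to 0.44, 0 to 0.56 and 1 to 2.71 FPKM, with SAMP 25 wk above both other groups. Its paralogue Etv5 was at 4.58 ± 1.65, 2.78 ± 0.988 and 2.12 ± 0.562 FPKM (SD, n = 3), with SAMP 25 wk separate from AKR 25 wk and lower, and the immediate early gene Ier2 was at 7.10 ± 1.303, 4.96 ± 1.82 and 4.22 ± 0.753 FPKM, likewise separate and lower. Their differences from AKR 25 wk were -0.81 ± 0.30 and -0.63 ± 0.26 (SE), with adjusted p of 0.21 and 0.266 by limma. Rnf41, a ubiquitin ligase that degrades ErbB3, differed by 0.70 ± 0.22 between SAMP 25 wk and SAMP 5 wk with an adjusted p of 0.148. Lrig3 differed by -0.79 ± 0.25 between SAMP 25 wk and AKR 25 wk with an adjusted p of 0.136. Of the 17 tested early targets, Ccnd1, Dusp6, Etv5 and Ier2 were separate and lower in SAMP 25 wk than in AKR 25 wk and Dusp4 was separate and higher. Over all tested genes, 12.6% were separate and lower and 6.6% separate and higher. None of these early targets passed.

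**Figure D5:**
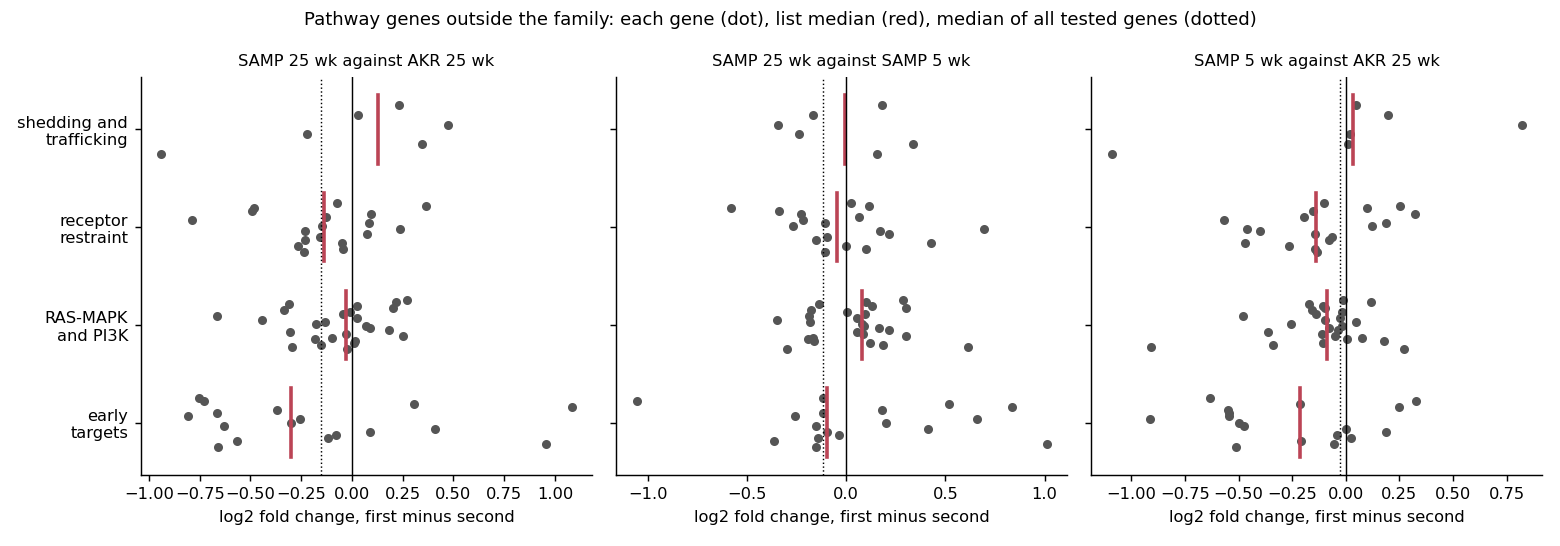
Log2 differences of the tested genes of 4 pathway lists in 3 comparisons, 1 dot per gene. The red line is the list's median and the dotted line the median of all tested genes. The early targets span both sides of 0 and have the lowest median in the comparisons with AKR 25 wk, at -0.30 and -0.21.

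Genes with the most similar profile were sought for the 3 tested members that varied most over the 9 libraries, with an SD of 0.60 for Hbegf, 0.54 for Erbb2 and 0.36 for Errfi1 on the log2 scale. Likeness was the root mean square difference of the centred log2(FPKM + 1) profiles, 0 for identical profiles. The genes compared were tested genes outside the members, without those that have only a provisional name. For Erbb2 the nearest were Septin5 at 0.148, Klf5 at 0.161 and St14 at 0.167, beside a median of 0.569 over all genes compared. For Hbegf they were Bpnt1 at 0.190, Faah at 0.2 and Acadl at 0.218, beside a median of 0.609. For Errfi1 they were LTO1 at 0.0850, Ier3ip1 at 0.111 and Fam13b at 0.112, beside a median of 0.455. The nearest genes lie below the median by selection, so the median gives only a scale. Hbegf, Errfi1 and the 3 nearest genes of each were highest in AKR 25 wk replicate 2, the library rich in enterocyte markers. Bpnt1 was at 27.67 FPKM there and at most 15.47 in the other libraries. These are descriptions over 9 libraries that share the 3 groups.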

How the data were processed

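RNA sequencing covered 9 libraries of ileal stem cell niche cut out by laser, grouped by the strain and age in the labels. Replicate numbers follow accession order and pair nothing. Per the file headers, the values that the authors deposited are FPKM, in a single table of 18220 rows. The submitters' processing notes name Trimmomatic, STAR, HTSeq, DESeq2 and GRCm38. Not given in the sources used here were the tool that made the FPKM, versions and the use of strand. A label note on cultured crypts was not resolved.

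All 9 libraries entered 1 fit of 3 group means in limma 3.58.1 (R 4.3.3) on log2(FPKM + 1), with a variance trend, for the 11775 genes with a mean of 1 FPKM or more. The pseudocount of 1 understates differences of low genes. P-values were adjusted by Benjamini-Hochberg within a comparison over all tested genes, at 0.05. Reads and depth were estimated from step sizes of low values, with the depth chosen to bring them closest to whole reads. At that depth 77.85% to 84.36% lay within 0.2 of a whole read. The 40% at random holds for a depth not chosen this way, so it is too low a yardstick. Since these are estimates, no count test was run. Read floors cover counting error only.

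Names came from RefSeq's GRCm38.p6 annotation, and 50 rows stayed unnamed. Protein sequences and the upstream sequence of Hbegf were not used here. Named were all 10 members, the other family ligands, Lrig1, Adam17, Dusp6, Egr1 and Fos, pathway genes past the threshold (none) and the nearest profiles of the 3 most variable members. Ccnd1, Dusp4, Etv4, Etv5, Ier2, Phlda1, Rnf41 and Lrig3, and the cell markers named, were chosen outside that rule after their values were seen. The members and lists were chosen with earlier results of these data known. The fit was tested on simulated data. Alternatives are given with their effect in the closing section.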

Additional observations from a re-analysis of the deposited data

How the results depend on the processing

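Over all members and pathway genes named by rule, 744 values under alternatives gave 705 with the same direction and call, 37 with the opposite sign and 2 past the threshold. Of the 126 receptor values in the comparisons of SAMP 25 wk, 125 kept direction and call and 1 passed. The 2 were Hbegf against AKR 25 wk with library weights (-1.25) and Erbb2 without SAMP 25 wk replicate 3 (-1.23, adjusted p = 0.0418 by limma), so members called against AKR 25 wk numbered 1 with library weights and 0 to 1 with a replicate left out. Over the alternatives the adjusted p of Erbb2 against AKR 25 wk by limma ranged from 0.0418 to 0.277 and that of Hbegf from 0.00506 to 0.683. Some alternatives, such as another variance model, change the adjusted p but cannot change the difference, so their direction was fixed. For a gene whose library values were separate, leaving out a library, library weights or another pseudocount could not turn the sign either.

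Genes called, 346 for SAMP 25 wk against AKR 25 wk, were 2514 with library weights, 186 to 492 with a replicate left out and 158 without both unusual libraries. The 179 against SAMP 5 wk were 99 with no minimum FPKM, 300 with quantile normalization, 2297 with library weights and 82 to 528 with a replicate left out. The 65 for SAMP 5 wk against AKR 25 wk were 196 with library weights, 36 to 70 with a replicate left out and 40 without both unusual libraries. Against AKR 25 wk, 187 were higher and 159 lower, and with quantile normalization 312 and 169. With equal medians they were 296 and 148, and with library weights 611 and 1903. Against SAMP 5 wk, 107 were higher and 72 lower, and 214 and 86 with quantile normalization. The median of all genes against AKR 25 wk was -0.003 with quantile normalization. The cause of these shifts was not tested.

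The sign turned for small differences. Against AKR 25 wk, Tgfa was at 0.11 with quantile normalization, 0.12 with equal medians and 0.08 with rescaling without 109 ribosomal RNA, defensin and unnamed rows. With TPM, Errfi1 was at -0.026, Lrig1 at -0.014 and Adam17 at -0.073. With library weights Adam17 was at -0.058 and Fos at 0.17. Without both unusual libraries Lrig1 was at -0.18 and Fos at 0.12. Against SAMP 5 wk, Ereg was at 0.072 with equal medians, 0.076 with that rescaling and 0.054 without both libraries, and Egr1 at 0.01 with the rescaling and 0.43 with library weights. For SAMP 5 wk against AKR 25 wk, Egfr was at -0.01 with TPM, and without both libraries Erbb2 was at 0.038 and Erbb3 at 0.12.

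With a replicate left out, values against AKR 25 wk ranged from -0.104 to 0.052 for Tgfa, -0.14 to 0.35 for Errfi1, -0.11 to 0.23 for Lrig1, -0.26 to 0.18 for Adam17 and -0.58 to 0.17 for Fos. Against SAMP 5 wk they ranged from -0.163 to 0.054 for Ereg, -0.037 to 0.50 for Dusp6 and -0.41 to 0.16 for Egr1. For SAMP 5 wk against AKR 25 wk they ranged from -0.042 to 0.14 for Egfr, -0.33 to 0.038 for Erbb2, -0.23 to 0.12 for Erbb3 and -0.10 to 0.34 for Adam17.

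No paired analysis was possible because the labels give no replicate numbers shared between groups. Members below 1 FPKM rested on 0 to 24 estimated reads per library, and such levels limit what can be told between groups.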
